A study of Homo sapiens with 6 samples.

Results

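The 10 genes described here are receptors, nuclear partners, regulators and targets of the Notch pathway: NOTCH1, NOTCH2, NOTCH3, RBPJ, MAML1, FBXW7, HES1, HES4, DTX1 and NRARP. They were taken by symbol, through the Ensembl identifiers that GENCODE 29 pairs with these names, from 58735 genes counted by RNA-seq in 6 libraries. All libraries came from Jurkat, an established human T cell leukaemia line that was infected with a lentiviral vector. In 3 libraries, shSATB1, the vector carried a short hairpin RNA against SATB1, which encodes a chromatin organiser of T cells, and in 3, shCtrl, it carried a control hairpin. The labels name 1 vector per group and do not tell whether replicates were cultured or infected apart. The p-values therefore cover only the spread among these libraries, and that spread may be technical.

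Notch receptors are cut by ADAM proteases and by gamma-secretase once a ligand on a neighbouring cell binds them. The released intracellular part enters the nucleus, joins the DNA-binding protein RBPJ and a Mastermind coactivator such as MAML1, and switches on target genes. The pathway commits early thymic progenitors to the T lineage, and its activation is a common event in T cell leukaemia. Jurkat cells are known to carry altered NOTCH1 and FBXW7 alleles.

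SATB1 averaged 102 ± 1.94 CPM in shSATB1 and 266 ± 11.6 CPM in shCtrl (CPM scaled to TMM-adjusted library sizes; mean ± SD, n = 3 libraries per group here and below), a log2 fold change of -1.38 (SE 0.0611). Libraries held 26626539 to 28143385 reads in genes in shSATB1 and 27737353 to 28913623 in shCtrl. Of 9 T cell markers 1 rose (TRAC) and 3 fell (CD3D, CD2 and CD5). These are 11.1% and 33.3%, against 14.3% and 16.6% of all tested genes. The 9 T cell markers summed to 2438 to 2590.2 CPM in shSATB1 libraries and 2523 to 2851 CPM in shCtrl libraries. The 6 myeloid markers summed to 0.655 to 1.27 CPM in shSATB1 and 0.946 to 1.14 CPM in shCtrl. The 6 B cell markers summed to 48.4 to 56.8 CPM in shSATB1 and 55.8 to 65.6 CPM in shCtrl, nearly all from CD79A, which fell. The 6 epithelial and fibroblast markers summed to 21.3 to 23.1 CPM in shSATB1 and 15.5 to 18.1 CPM in shCtrl, mainly from COL1A1, which rose, while EPCAM and KRT19 had 0 reads in each library. The part of these markers in the results was not tested. The control libraries differed by gene length. Genes of the longest quintile (8.56 kb of exon or more) lay at a median log2 deviation from the control mean of -0.09 in shCtrl 2 and 0.09 in shCtrl 1, and genes of the shortest quintile at 0.12 and -0.10.

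All 10 genes passed the filter on low counts. HES1 and RBPJ rose, NOTCH3, HES4 and DTX1 fell, and NOTCH1, NOTCH2, MAML1, FBXW7 and NRARP did not pass at 0.05 by edgeR's quasi-likelihood test. Each adjusted p of this main fit, here and below, is corrected by Benjamini-Hochberg over 17520 genes. That of any other fit is corrected over the genes kept in that fit. Among all tested genes 30.9% passed, 14.3% higher and 16.6% lower, so 2 rises and 3 falls among 10 genes are close to the share over all genes. The groups did not overlap for 5 of the 10, against 45.1% of all tested genes. The median log2 fold change of the 10 was -0.07, against 0.01 over all tested genes. In bulk RNA, a lower level in each cell and a loss from some of the cells cannot be told apart.

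RBPJ is the factor through which Notch reaches DNA. It recognises a core of TGGGAA, best known as GTGGGAA. Both were searched on both strands in RefSeq promoter windows (GRCh38.p14, 250 bases before to 50 after each start); each GTGGGAA match contains a TGGGAA match. HES1, HES4 and RBPJ itself hold GTGGGAA, 3 of the 9 genes with a window (NOTCH1, NOTCH2, NOTCH3, RBPJ, MAML1, FBXW7, HES1, HES4 and NRARP). In all, 6.25% of 35116 windows and 7.88% of 10892 tested genes with a window hold it. The same 3 of 9 genes hold the shorter TGGGAA. It occurs in 24.0% of all windows and in 2995 of the 10892 tested genes, a share near that of the 9 genes. No enrichment was tested. The sequences are shown because these are the members whose promoters carry the core, with TGGGAA and GTGGGAA of either strand in capitals.
HES1, chr3:194135998-194136144, plus strand: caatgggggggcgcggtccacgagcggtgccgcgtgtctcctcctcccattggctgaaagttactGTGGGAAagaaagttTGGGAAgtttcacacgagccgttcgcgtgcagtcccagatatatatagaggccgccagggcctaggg
HES4, chr1:1000150-1000179, minus strand: cgagtGTGGGAAagaatgcggagccgggtt
RBPJ, first match, chr4:26319626-26319655, plus strand: gaaatTTCCCACggccgtgttgtgtctgag
RBPJ, second match, chr4:26319668-26319697, plus strand: aggcgGTGGGAAggaggtgtagcgtgagac

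Counted from the RefSeq start, the GTGGGAA match of HES1 begins at -85, with a further TGGGAA at -70, and that of HES4 begins at -77. The RBPJ window that holds a match is 1 of 5 listed for the gene, and its matches begin at -115 on the opposite strand and at -73. The HES1 and HES4 promoters thus carry the same 7 letters on the same strand, while the transcripts of these genes differed in direction, as given below. The positions of these letters lie a few bases apart only when counted from the RefSeq starts. By the GENCODE coordinates, HES4 begins at 1000172 on the minus strand, a base inside its GTGGGAA match. HES1 begins at 194136145, downstream of its whole printed stretch. A match is a description of letters and was not measured as a binding site.

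**Figure D1:**
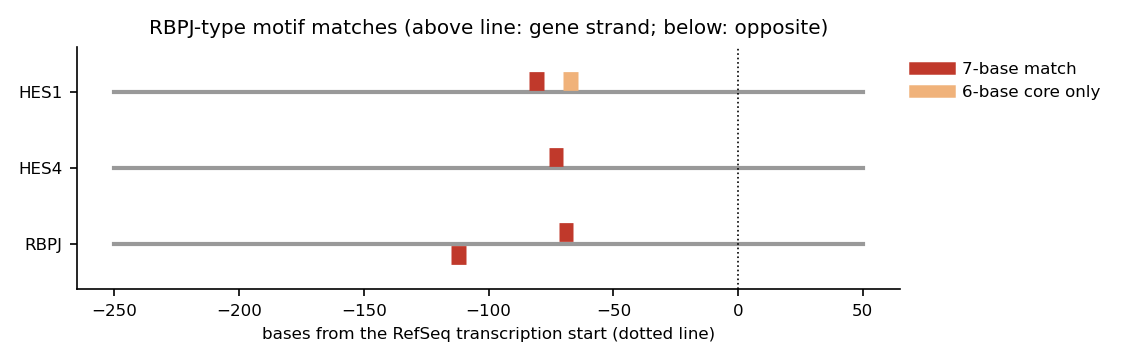
Matches to the RBPJ core in the promoter windows of HES1, HES4 and RBPJ, by distance in bases from the RefSeq start; boxes above a line are on the gene's strand and boxes below on the opposite one. HES1 and HES4 hold a 7-base match at -85 and -77, and RBPJ holds matches at -115 and -73.

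HES1 (ENSG00000114315, chromosome 3, 194136145 to 194138732, plus strand, hg38 coordinates here and below) encodes a basic helix-loop-helix repressor that is the classic direct Notch target. It stood at 6.23, 6.35 and 7.34 CPM in shSATB1 1, 2 and 3, against 3.26, 3.96 and 3.77 CPM in shCtrl 1, 2 and 3. Each shSATB1 library was higher than each shCtrl library. HES1 rose 1.81-fold, with a log2 fold change of 0.86 (SE 0.138, edgeR adjusted p = 0.000478), on 171 to 213 reads per shSATB1 library and 91 to 109 reads per shCtrl library. The call held in all 16 other fits tried, with log2 fold changes of 0.77 to 1.03.

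HES4 (ENSG00000188290, chromosome 1, 998962 to 1000172, minus strand) encodes a relative of HES1 and is a Notch target of human T cells that mice lack. Its level was 16.6, 17.6 and 19.5 CPM in shSATB1 libraries, against 31.0, 31.6 and 20.5 CPM in shCtrl libraries. The groups did not overlap, though shCtrl 3 lay close to shSATB1 3 and well below the other controls. HES4 fell 1.55-fold (log2 fold change -0.63, SE 0.136, edgeR adjusted p = 0.00340), and the call held in all 16 other fits, with log2 fold changes of -0.81 to -0.52. Without shCtrl 3 the log2 fold change was -0.81.

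The ratio of HES4 to HES1 reads within a library does not depend on how libraries are scaled to each other. It was 2.67, 2.77 and 2.66 in shSATB1 1, 2 and 3, against 9.51, 7.97 and 5.43 in shCtrl 1, 2 and 3. The lowest control ratio was above each shSATB1 ratio. The ratio was chosen after the values of both genes were known and was given no test.

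DTX1 (ENSG00000135144, chromosome 12, 113056709 to 113098028, plus strand) encodes Deltex, a ubiquitin ligase that binds the Notch intracellular part and whose gene is a Notch target in lymphocytes. Its values were 64.9, 67.6 and 65.0 CPM in shSATB1 libraries, against 83.2, 80.7 and 84.0 CPM in shCtrl libraries. Both groups were narrow and lay apart. DTX1 fell 1.26-fold (log2 fold change -0.33, SE 0.0595, edgeR adjusted p = 0.00107). Its log2 fold change stayed between -0.35 and -0.30 in the other fits, and the call ended only in a test for changes beyond 1.2-fold (adjusted p = 0.257).

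NRARP (ENSG00000198435, chromosome 9, 137300482 to 137302251, minus strand) encodes a small ankyrin repeat protein that is induced by Notch and dampens it. It had 21, 16 and 23 reads in shSATB1 libraries and 21, 12 and 14 in shCtrl libraries, or 0.765, 0.564 and 0.793 CPM in shSATB1 against 0.753, 0.436 and 0.517 CPM in shCtrl. These groups overlapped. The log2 fold change of 0.31 had an SE of 0.338 (edgeR adjusted p = 0.525), so at this depth no difference was detectable.

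**Figure D2:**
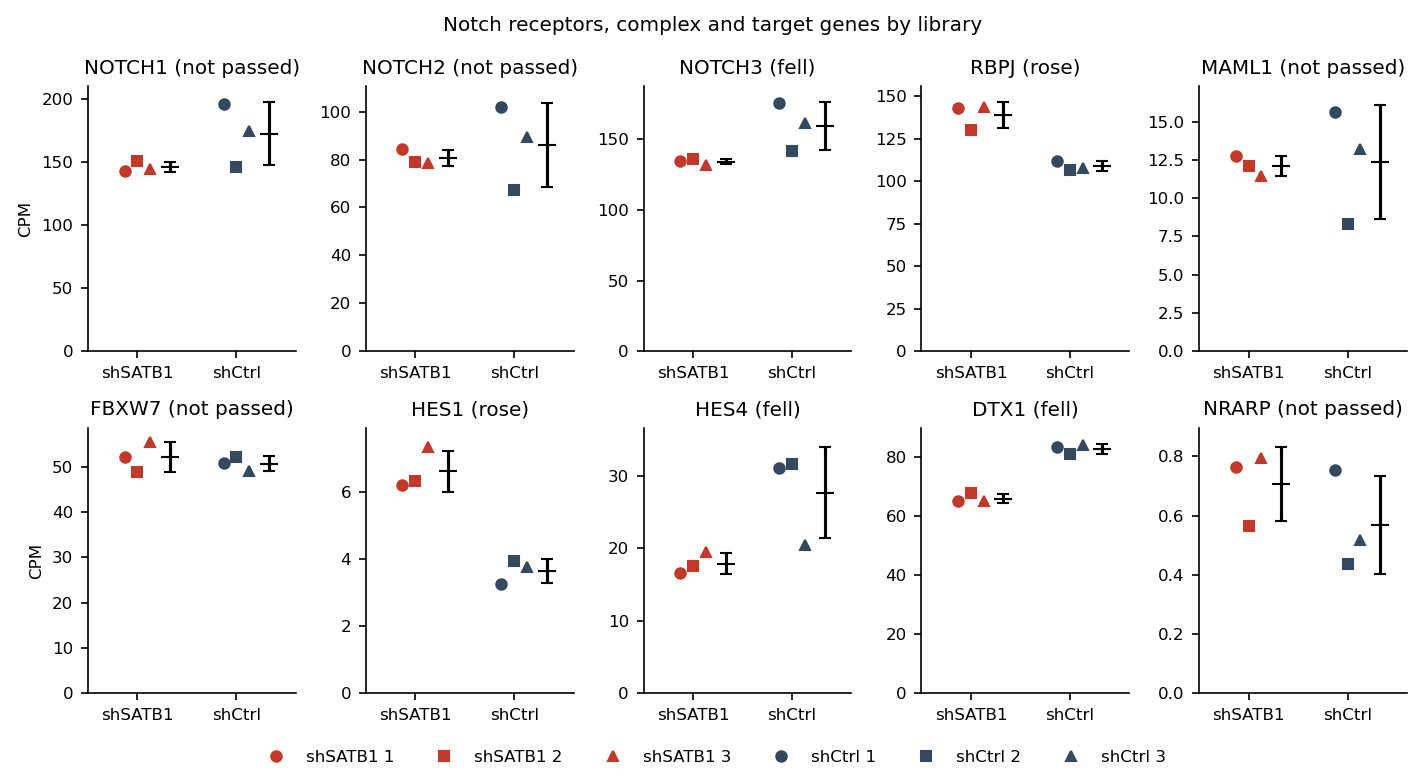
CPM of each gene in each of the 3 shSATB1 and 3 shCtrl libraries, with the group mean ± SD in black; each axis starts at 0. HES1 and RBPJ lie higher in each shSATB1 library, NOTCH3, HES4 and DTX1 lower, and the control values of NOTCH1, NOTCH2 and MAML1 spread widely, with shCtrl 2 lowest.

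Among the receptors, NOTCH3 passed the test and NOTCH1 and NOTCH2 did not, but all 3 had their highest level in shCtrl 1 and the lowest control level in shCtrl 2. NOTCH1 (ENSG00000148400, chromosome 9, 136494433 to 136545786, minus strand), the receptor that drives T lineage commitment, stood at 143, 151 and 144 CPM in shSATB1, against 196, 146 and 175 CPM in shCtrl. The shCtrl 2 value lay within the shSATB1 range, and both other controls lay above it. The log2 fold change was -0.24 (SE 0.0874, edgeR adjusted p = 0.0512).

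NOTCH3 (ENSG00000074181, chromosome 19, 15159038 to 15200981, minus strand), a receptor that is also a Notch target in T cell leukaemia, stood at 135, 136 and 132 CPM in shSATB1, against 176, 142 and 162 CPM in shCtrl. The groups did not overlap, with shCtrl 2 nearest to shSATB1. NOTCH3 fell 1.19-fold (log2 fold change -0.25, SE 0.0741, edgeR adjusted p = 0.0199). The call was lost without shCtrl 3 (adjusted p = 0.0723) and without shSATB1 1, 2 or 3 (adjusted p = 0.0811, 0.0661 and 0.0977), and in the test beyond 1.2-fold (adjusted p = 0.745).

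NOTCH2 (ENSG00000134250, chromosome 1, 119911553 to 120069626, minus strand), a receptor known from marginal zone B cells, stood at 84.4, 78.9 and 78.5 CPM in shSATB1, against 102, 67.4 and 89.2 CPM in shCtrl. The control values lay on both sides of the shSATB1 values. The log2 fold change was -0.10 (SE 0.111, edgeR adjusted p = 0.547). Its transcript is partly copied in NOTCH2NL genes: 4.65% of its 50-base windows also occur in transcripts of other genes, so a small part of its reads can be shared or dropped. NOTCH2NLA itself had 17 to 29 reads in shSATB1 libraries and 17 to 32 in shCtrl libraries.

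Without shCtrl 2, all 3 receptors fell: log2 fold changes were -0.34 for NOTCH1, -0.32 for NOTCH3 and -0.24 for NOTCH2 (edgeR adjusted p = 2.29e-05, 3.33e-05 and 0.00401). Without shCtrl 1 they were -0.14, -0.18 and 0.035 (adjusted p = 0.117, 0.0346 and 0.776). The merged exon length, over all annotated exons of a gene, is 10377, 9394 and 16807 bases for NOTCH1, NOTCH3 and NOTCH2. This puts them in the longest quintile, in which shCtrl 2 was low and shCtrl 1 high. RBPJ and FBXW7, with 9253 and 11095 bases, are in the same quintile, but their shCtrl 2 values of 107 and 52.2 CPM were not set apart from the other controls. MAML1, with 5942 bases, is outside that quintile and was also lowest of the controls in shCtrl 2. The part of gene length in the receptor values was not tested. With offsets for gene length and GC content, the log2 fold changes of NOTCH1, NOTCH3 and NOTCH2 were -0.33, -0.33 and -0.25 (adjusted p = 0.000771, 0.000361 and 0.0121).

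The mix of receptors was compared within each library, with reads divided by merged exon length. The size of each share depends on this choice of length. NOTCH1 made up 41.5%, 43.1% and 42.6% of receptor reads per length (NOTCH1 to NOTCH4) in shSATB1 libraries, against 43.3%, 42.4% and 42.8% in shCtrl libraries. NOTCH3 made up 43.1% ± 0.173 in shSATB1 and 44.0% ± 1.34 in shCtrl. The NOTCH1 share differed by -0.41 percentage points (two-sided exact permutation p = 0.5, the smallest possible being 0.1 with 3 against 3 libraries). NOTCH2 made up 14.5% ± 0.637 in shSATB1 and 13.1% ± 0.950 in shCtrl (exact permutation p = 0.1), and NOTCH4 at most 0.0537% in a library. Of these 4 shares, none could reach an adjusted p under 0.05 in this design.

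RBPJ (ENSG00000168214, chromosome 4, 26163455 to 26435131, plus strand), the DNA-binding partner of all Notch receptors and a repressor in their absence, rose. It stood at 143, 130.1 and 143 CPM in shSATB1 libraries, against 112, 107 and 107 CPM in shCtrl libraries, with no overlap. The fold was 1.28 (log2 fold change 0.35, SE 0.0627, edgeR adjusted p = 0.000946). The log2 fold change was 0.19 with length and GC offsets (adjusted p = 0.00463), and only the test beyond 1.2-fold ended the call (adjusted p = 0.178). Processed copies of RBPJ share 1.31% of its 50-base transcript windows.

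MAML1 (ENSG00000161021, chromosome 5, 179732850 to 179777286, plus strand), the coactivator that completes the complex, stood at 12.7, 12.1 and 11.4 CPM in shSATB1, against 15.6, 8.33 and 13.2 CPM in shCtrl. As for NOTCH2, the control values enclosed the shSATB1 values, with shCtrl 2 lowest. The log2 fold change was -0.03 (SE 0.167, edgeR adjusted p = 0.896). FBXW7 (ENSG00000109670, chromosome 4, 152320544 to 152536063, minus strand), the ubiquitin ligase subunit that marks the Notch intracellular part and MYC for destruction, stood at 52.2, 48.9 and 55.4 CPM in shSATB1, against 50.9, 52.2 and 49.1 CPM in shCtrl. Its groups overlapped, with a log2 fold change of 0.04 (SE 0.0683, edgeR adjusted p = 0.690). Exons of FBXW7 overlap the antisense gene FBXW7-AS1 over 1.14% of their length, and FBXW7-AS1 had at most 3 reads in any library.

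**Figure D3:**
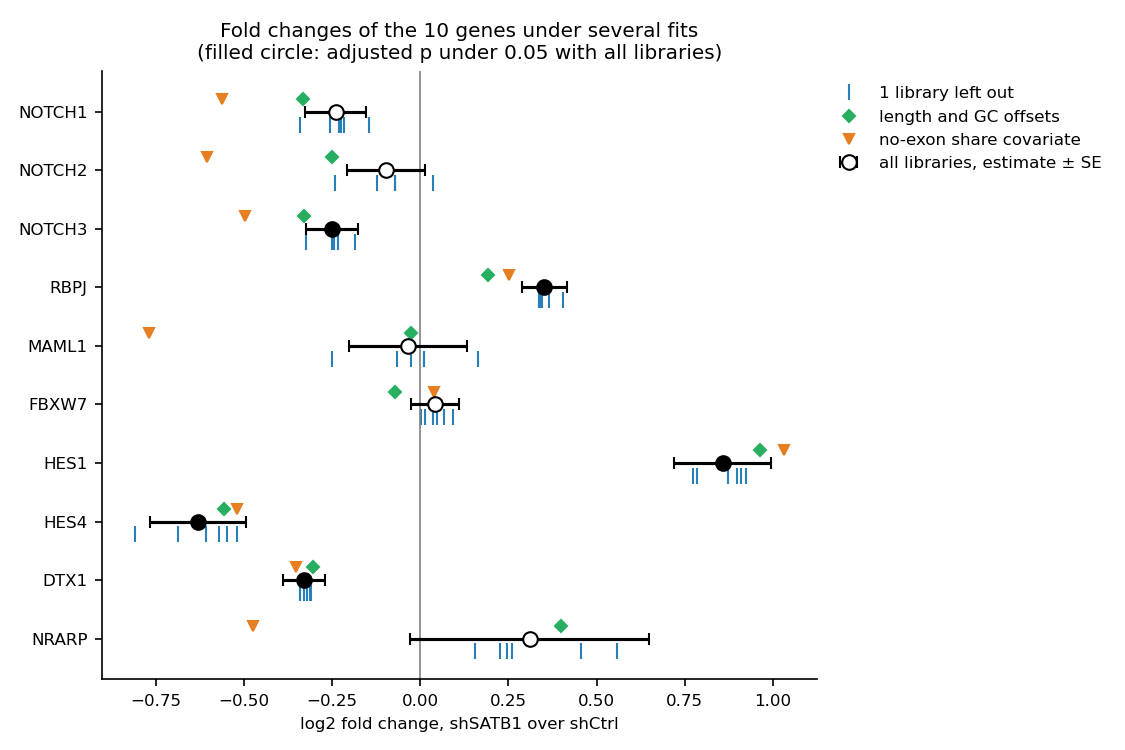
Log2 fold change of shSATB1 over shCtrl for the 10 genes with all libraries (circle ± SE, filled where adjusted p is under 0.05), with 1 library left out at a time (blue ticks), with length and GC offsets (green) and with the no-exon share of reads as a covariate (orange). HES1 stays between 0.77 and 1.03 and HES4 between -0.81 and -0.52. NOTCH3 stays below 0 but ranges from -0.50 to -0.18, and NOTCH1, NOTCH2, MAML1 and NRARP also depend on the fit.

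Reads that the counting assigned to no annotated exon (the no-exon share) made up 11.4% ± 0.436 of reads in shSATB1 and 9.10% ± 1.23 in shCtrl. The strand setting is not given, so reads on the strand opposite an exon may be among them. In this share each shSATB1 library lay above each shCtrl library, and shCtrl 2 was lowest. With it as a covariate the log2 fold changes of NOTCH1, NOTCH2, NOTCH3 and MAML1 were -0.56, -0.60, -0.50 and -0.77 (edgeR adjusted p = 1.89e-06, 2.44e-06, 1.06e-05 and 0.00103). HES1, RBPJ, HES4 and DTX1 kept their calls, with adjusted p of 0.00423, 0.0443, 0.0314 and 0.00604. The groups do not overlap in this share, so the covariate can also take up a group difference.

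Levels of different genes were compared per exon length (RPKM, from the CPM above). In shSATB1 the order of means was HES4, RBPJ, DTX1, NOTCH3, NOTCH1, NOTCH2, FBXW7, HES1, MAML1 and NRARP. RBPJ, at 14.1 to 15.5 RPKM, overlapped HES4, DTX1, NOTCH3 and NOTCH1 in range, HES4 overlapped DTX1, NOTCH3 overlapped NOTCH1, and NOTCH2 overlapped FBXW7. HES1, MAML1 and NRARP each lay apart. In shCtrl the order was HES4, DTX1, NOTCH3 and NOTCH1, each overlapping the others, then RBPJ apart, NOTCH2 and FBXW7 overlapping, MAML1 and HES1 overlapping, and NRARP. HES4, at 16.0 ± 1.31 RPKM in shSATB1 and 24.8 ± 5.61 RPKM in shCtrl, stood above HES1, at 3.22 ± 0.297 RPKM in shSATB1 and 1.78 ± 0.175 RPKM in shCtrl. NOTCH1 and NOTCH3 were at like levels, 14.1 ± 0.400 and 14.3 ± 0.195 RPKM in shSATB1 and 16.6 ± 2.41 and 17.0 ± 1.80 RPKM in shCtrl. NRARP was lowest, at 0.400 ± 0.0704 RPKM in shSATB1 and 0.321 ± 0.0931 RPKM in shCtrl.

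**Figure D4:**
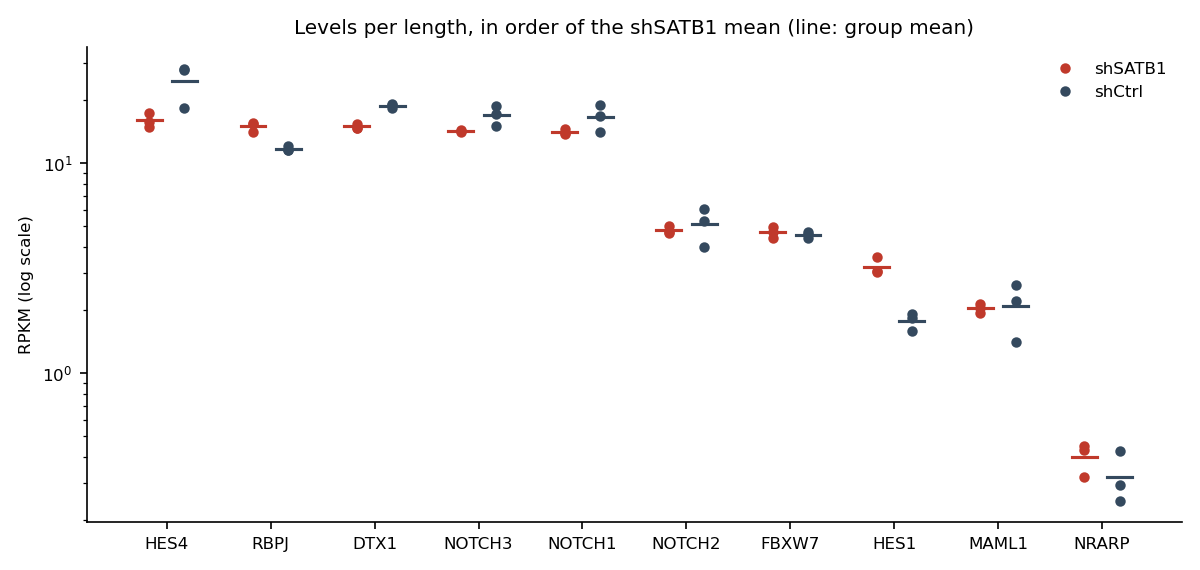
RPKM on a log axis for the 10 genes in the 3 shSATB1 and 3 shCtrl libraries, in order of the shSATB1 mean; lines are group means. By merged exon length HES4 has the highest mean in both groups, with a range that overlaps those of other genes, and NRARP is the lowest. HES1 lies above MAML1 in shSATB1 while their ranges overlap in shCtrl.

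Other genes of the pathway, in 7 lists of 83 genes, were tested for 76 of their members, of which 13 rose (17.1%) and 16 fell (21.1%), against 14.3% and 16.6% of all tested genes. Their median log2 fold change was 0.03, against 0.01 over all tested genes. Ligands were sparse: DLL3, an unusual ligand that acts within the cell, fell to 4.16 ± 0.636 CPM in shSATB1, against 6.59 ± 0.290 CPM in shCtrl (edgeR adjusted p = 0.00273; with the covariate 0.195). JAG2, the ligand gene of highest CPM, did not pass, at 16.5 ± 1.86 CPM in shSATB1 and 14.8 ± 0.515 CPM in shCtrl (adjusted p = 0.237). DLL1 and JAG1 did not pass either. DLL4 and NOTCH4 were below the filter, with at most 8 and 5 reads per library.

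Of 13 tested genes for receptor modification and cleavage, 3 rose and 2 fell (23.1% and 15.4%, against 14.3% and 16.6% of all tested genes), with a median log2 fold change of 0.12. ADAM10, the protease of the first ligand-dependent cut, rose to 432 ± 18.3 CPM in shSATB1, against 320.1 ± 9.25 CPM in shCtrl (edgeR adjusted p = 0.000181), while its relative ADAM17 stood at 39.9 ± 1.45 CPM in shSATB1 and 39.1 ± 3.20 CPM in shCtrl (adjusted p = 0.802). Gamma-secretase subunits moved both ways. NCSTN, which holds the substrate, averaged 96.9 ± 2.28 CPM in shSATB1 and 79.2 ± 1.32 CPM in shCtrl and rose (adjusted p = 0.00213). APH1A, a scaffold subunit gene, fell to 82.7 ± 2.57 CPM in shSATB1, against 107 ± 6.07 CPM in shCtrl (adjusted p = 0.000792; with the covariate 0.113). MFNG, a Fringe sugar transferase that tunes ligand choice, fell to 72.4 ± 2.31 CPM in shSATB1, against 105 ± 1.71 CPM in shCtrl (adjusted p = 2.84e-05). Calls for ADAM10 and MFNG held in all 16 other fits.

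Of 7 coactivator genes 3 rose and 2 fell (42.9% and 28.6%, against 14.3% and 16.6% of all tested genes), with a median log2 fold change of -0.08. The acetyltransferase gene CREBBP stood at 149, 150.1 and 147 CPM in shSATB1, against 117, 85.0 and 105 CPM in shCtrl (edgeR adjusted p = 0.000677), and its relative EP300 averaged 207 ± 6.36 CPM in shSATB1 and 146 ± 36.5 CPM in shCtrl (adjusted p = 0.00866). Both rose, and both were lowest in shCtrl 2. With the no-exon share as a covariate CREBBP did not pass (adjusted p = 0.221) and EP300 turned to a log2 fold change of -0.10. MAML3, a MAML1 relative, rose to 3.55 ± 0.398 CPM in shSATB1, against 2.28 ± 0.533 CPM in shCtrl (adjusted p = 0.0219), a call lost without shSATB1 2 or 3 (0.0818 and 0.088) and with the covariate (0.519). SNW1, which bridges RBPJ and its partners, fell to 74.5 ± 2.07 CPM in shSATB1, against 100.4 ± 10.2 CPM in shCtrl (adjusted p = 0.000753), and the acetyltransferase gene KAT2A also fell. Neither passed with the covariate (0.207 and 0.211).

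Of 16 corepressor genes 2 rose and 3 fell (12.5% and 18.8%), near the 14.3% and 16.6% of all tested genes. KDM5A, a histone demethylase recruited by RBPJ, rose to 304 ± 13.5 CPM in shSATB1, against 199 ± 31.8 CPM in shCtrl, and NCOR1 rose to 315 ± 10.0 CPM in shSATB1, against 258 ± 43.9 CPM in shCtrl (edgeR adjusted p = 0.000329 and 0.0326). SAP30 and CIR1 fell, and both calls were lost with the covariate (0.806 and 0.93), and CIR1 also without shCtrl 2 or 3 or shSATB1 2 or 3 (0.0829 to 0.136). With the covariate KDM5A missed the threshold (adjusted p = 0.0787) and NCOR1 turned to a log2 fold change of -0.13. NCOR1 was also lost with length and GC offsets (0.0618) and without shCtrl 3 or shSATB1 1, 2 or 3 (0.0718 to 0.107).

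Of 19 tested genes of trafficking and turnover 3 rose and 2 fell (15.8% and 10.5%, against 14.3% and 16.6% of all tested genes). AAK1, a kinase of clathrin uptake, rose to 134 ± 6.26 CPM in shSATB1, against 87.4 ± 11.9 CPM in shCtrl (edgeR adjusted p = 0.000165). The ubiquitin ligase genes ITCH and CBL rose to 134 ± 5.61 and 248 ± 9.90 CPM in shSATB1, against 107 ± 7.97 and 192 ± 36.5 CPM in shCtrl (adjusted p = 0.00243 and 0.0155). ITCH did not pass with the covariate (0.388), and CBL turned to a log2 fold change of -0.11 there and was lost without shCtrl 3 or shSATB1 1 or 3 (0.054 to 0.0629). SKP1 and RBX1, partners of FBXW7 in its ligase complex, fell to 111 ± 4.23 and 63.6 ± 2.10 CPM in shSATB1, against 138 ± 23.4 and 77.1 ± 11.3 CPM in shCtrl (adjusted p = 0.0231 and 0.0317). Both were highest in shCtrl 2, and with the covariate both turned to a log2 fold change near 0.09. SKP1 was lost without shSATB1 1, 2 or 3 (0.0556 to 0.113), and RBX1 also without shCtrl 2 or 3 (0.0732 to 0.136 over all of these).

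Of 6 tested HES and HEY relatives 0 rose and 1 fell (0% and 16.7%, against 14.3% and 16.6% of all tested genes). The gene that fell was HES6, to 17.4 ± 1.80 CPM in shSATB1, against 26.4 ± 3.01 CPM in shCtrl (edgeR adjusted p = 0.000677). HES6 counteracts HES1 and is not a standard Notch target. HEYL, at 9.71 ± 0.753 CPM in shSATB1 and 10.5 ± 0.201 CPM in shCtrl, did not pass (adjusted p = 0.413), and HES5 had 0 reads in each library, which allows up to 0.109 CPM in shSATB1 and 0.111 CPM in shCtrl (3 reads in the shallowest library, counting error only).

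Of 11 further Notch targets of T cells 2 rose and 5 fell, against 14.3% and 16.6% of all tested genes. PTCRA, the pre-T cell receptor alpha chain, stood at 3.06, 2.68 and 2.97 CPM in shSATB1, against 4.92, 5.78 and 5.13 CPM in shCtrl. The groups lay apart (log2 fold change -0.86, SE 0.146, edgeR adjusted p = 0.00068; with the covariate 0.0748). TRIB2, a pseudokinase gene and leukaemia target of Notch, rose to 267 ± 4.55 CPM in shSATB1, against 173 ± 5.38 CPM in shCtrl (adjusted p = 6.57e-06). MYC and the cyclin gene CCND3, both Notch-driven in T cell leukaemia, had log2 fold changes of -0.70 and -0.80 (adjusted p = 3.23e-06 and 4.92e-06). SHQ1 and CR2 also fell and GATA3 rose. SHQ1 was lost without shSATB1 1 and with the covariate (0.0623 and 0.238), and CR2 with DESeq2 (0.0505) and without shCtrl 1 or 3 or shSATB1 2 or 3 (0.079 to 0.168). The receptor gene IL7R and TCF7, at 34.2 ± 1.26 and 688 ± 18.4 CPM in shSATB1 and 33.1 ± 0.789 and 697 ± 9.37 CPM in shCtrl, missed the threshold (adjusted p = 0.636 and 0.829). KAT2A, CIR1, RBX1, SHQ1, CR2, GATA3, IL7R, TCF7, ADAM17, DLL1, DLL4, JAG1 and HES5 were named after their values were seen.

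**Figure D5:**
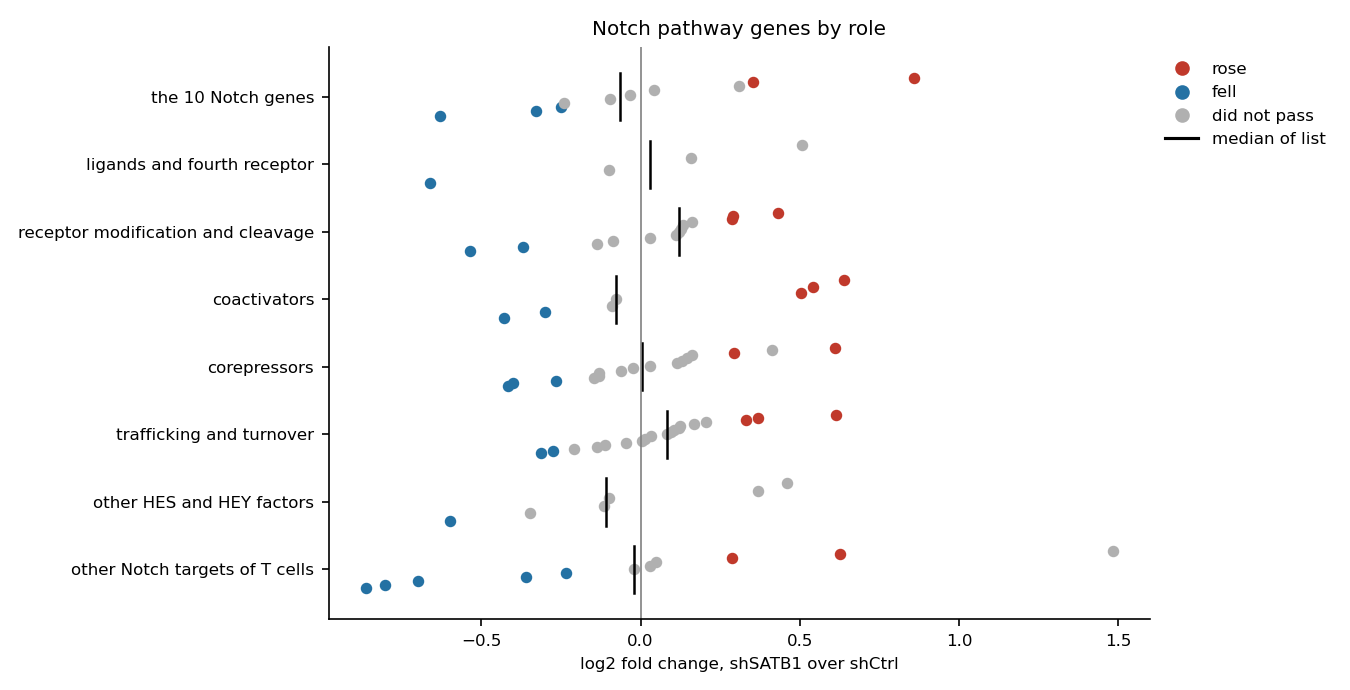
Log2 fold change of shSATB1 over shCtrl for each tested gene, in rows by role, with the median of each list as a black line. Each of the lists for cleavage, coactivators, corepressors, turnover and further targets holds genes that rose and genes that fell.

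The closest tested coding gene on each side of each member gave 20 neighbours, of which 3 rose and 7 fell (15.0% and 35.0%, against 14.3% and 16.6% of all tested genes). HES4 and ISG15, an interferon-stimulated gene, start in opposite directions 0.966 kb apart. ISG15 fell to 49.4 ± 2.41 CPM in shSATB1, against 63.4 ± 8.73 CPM in shCtrl (edgeR adjusted p = 0.00707), a call lost when the covariate was added (adjusted p = 0.998) and without shSATB1 3 (0.0507). DTX1 and RASAL1, a RAS GTPase activator gene, end towards each other 0.791 kb apart, and RASAL1 fell to 10.1 ± 0.693 CPM in shSATB1, against 14.2 ± 0.538 CPM in shCtrl (adjusted p = 0.00153; with the covariate 0.0819). The strand setting of the counts is not given, and whether reads running past one end count toward the other gene was not tested. The nearest genes of NOTCH3 (ILVBL and EPHX3) and of NOTCH1 (SEC16A and EGFL7) did not pass. NALT1, an antisense gene whose start lies beside that of NOTCH1, averaged 3.72 ± 0.291 CPM in shSATB1 and 5.70 ± 0.638 CPM in shCtrl and fell (adjusted p = 0.00524). It was chosen after its value was seen. The other calls were rises of SEC22B, ATP13A3 and NSMF and falls of PHGDH, SMIM20, TBC1D19, MGAT4B and GATB. Leaving out 1 library ended the calls of GATB (0.111 to 0.142 without any library but shCtrl 1), SMIM20 (0.054 to 0.0817 without shCtrl 2 or shSATB1 1, 2 or 3), SEC22B (0.0676 without shCtrl 3, 0.057 without shSATB1 3) and TBC1D19 (0.0646 without shSATB1 2).

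Across the 6 libraries, the genes most like NOTCH1 among 9770 others with a mean of 10 CPM or more were OAS3, LINC01237 and ADD2 (Pearson's r of log2 CPM 0.997, 0.991 and 0.991). These shared with NOTCH1 a high shCtrl 1 and a low shCtrl 2: OAS3 stood at 45.6, 48.5 and 45.8 CPM in shSATB1, against 65.0, 47.1 and 55.8 CPM in shCtrl. Genes most like HES1 included MYNN and UPF3A (r = 0.994 and 0.993). Correlations over these libraries share the group difference and each library's depth, and are given as a description.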

How the data were processed

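Groups and replicate numbers came from the sample titles. The authors deposited raw read counts per Ensembl gene, 1 file per library, not normalized. Per the submitters' processing notes the tools were Trim Galore, STAR and HTSeq and the build hg38. The sources used here give no annotation release and no strand setting. The 5 closing lines of each file name no gene and stayed out of library sizes: reads in no annotated exon were 7.77% to 11.7% and ambiguous reads 8.99% to 10.1% of reads. All 58735 identifiers were found in GENCODE 29, which gave names, exon lengths and coordinates.

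Counts were tested in edgeR 4.0.16 (R 4.3.3) with TMM, filterByExpr (minimum count 10) and the quasi-likelihood F test without covariates, Benjamini-Hochberg adjusted over 17520 genes at 0.05. CPM uses TMM-adjusted library sizes, and SE is the log2 fold change divided by the root of F. Within groups the chi-square per degree of freedom was 2.99 to 23.0, so no libraries were merged. Other fits used DESeq2 1.42.0, limma 3.58.1, other scalings and filters, a replicate block, each library left out, the no-exon share as a covariate, offsets from smooth fits (mgcv 1.9.3) on exon length and GC content, and a test for changes beyond 1.2-fold (edgeR's glmTreat). The script was tested on simulated counts. Correlations used log2(CPM + 0.5), and permutation tests scipy 1.17.1. Promoter windows were matched by symbol to RefSeq (GRCh38.p14), with 9 of 10 genes matched.

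The 10 genes, the lists and the fits were chosen with earlier results of these data known. Named genes were all 10, SATB1, up to 4 called genes of largest change per pathway list (with fewer than 2 called, the 2 genes of highest CPM), the nearest neighbours, and the 3 genes most like NOTCH1 and HES1. A few genes that this rule or the lists name are not reported here.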

Additional observations from a re-analysis of the deposited data

Results flagged for a closer look

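Reads assigned to no annotated exon, given beside the gene counts, averaged 11.4% in shSATB1 libraries and 9.10% in shCtrl libraries. Their share was higher in each of the 3 shSATB1 libraries than in each control.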

How the results depend on the processing

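The 2 rises (HES1 and RBPJ) and 2 of the 3 falls (HES4 and DTX1) held with each library left out, each normalization and each tool. In the test beyond 1.2-fold 1 gene rose (HES1) and 1 fell (HES4). Falls among the 10 numbered 2 to 5 with 1 library left out, 5 with length and GC offsets and 6 with the no-exon share as a covariate. The labels give same-numbered libraries nothing in common but the number, and their deviations from group means correlated at 0.126, 0.0991 and -0.00145. In both groups, though, the no-exon share was highest in library 1 and lowest in library 2. Whether same-numbered libraries were handled together was not tested. The replicate block gave 2 rises and 4 falls, adding NOTCH1 (adjusted p = 0.0334). NOTCH1 also passed with DESeq2 size factors, no filter and DESeq2 (adjusted p = 0.0477, 0.00314 and 0.0267). Pathway genes that rose and fell numbered 6 and 9 with the covariate and 5 and 6 in the test beyond 1.2-fold. Log2 fold changes of genes near 0 turned: NOTCH2 ranged from -0.24 to 0.035 and MAML1 from -0.25 to 0.16 with 1 library left out, MAML1 was 0.011 with limma-voom, and FBXW7 was -0.071 with length and GC offsets. With the covariate NRARP was -0.47, EP300 -0.10, NCOR1 -0.13, CBL -0.11, SKP1 0.091, RBX1 0.093 and SMIM20 0.016. The cause of these turns was not tested. The NOTCH1 share of receptor reads differed by 0.26 percentage points without NOTCH2, and by -0.75 to 0.019 with 1 library left out. Of 831 values for 52 named genes under 16 alternatives, 711 kept direction and side of the threshold. NRARP, with 12 to 23 reads per library, is limited by depth.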

Other observations

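Among tested genes with a promoter window, of 858 with GTGGGAA 17.5% rose and 17.4% fell, with a median log2 fold change of 0.01, and of 10034 without it 16.0% rose and 20.6% fell, with a median of -0.01. These shares are a description and were given no test.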
